A study of Oryza sativa with 4 samples.

Results

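Pathogenesis-related (PR) protein genes and NH1 were described here in leaves of rice plants (Oryza sativa, cultivar Nipponbare) grown from control seeds or from seeds that had matured under heat. They are 6 of the 37858 genes in the deposited table and were chosen by gene identifier (Rice Annotation Project): PR1a (Os07g0129200, chromosome 7), PR1b (Os01g0382000, chromosome 1), PR10a/PBZ1 (Os12g0555500, chromosome 12), RSOsPR10 (Os12g0555000, chromosome 12), JIOsPR10 (Os03g0300400, chromosome 3) and NH1 (Os01g0194300, chromosome 1). The rule itself uses no measured value, but it was set with earlier results of these data known. Control seeds (CS) matured at 25 °C and heat-developed seeds (HDS) at 30 °C, and the plants grown from both, called CS plants and HDS plants, were raised under natural conditions without a further treatment. Fully developed leaves were sampled at the vegetative stage from 2 biological replicates per treatment, and all 4 libraries were of the same cultivar. The libraries held between 15444235 and 17298384 expected counts, which RSEM estimates as the number of reads from each gene. Across genes kept for testing, log2 levels of the CS replicates were less alike (Pearson's r = 0.959) than those of the HDS replicates (r = 0.979), so each gene below is also given with libraries left out. The comparison asks whether the temperature of the maturing seed was followed by a different transcript level in the leaves of the next plants.

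PR proteins are made by plants in response to pathogens and to the defence hormones salicylic acid and jasmonic acid. PR1 proteins are secreted, and their genes are widely used as markers of the salicylic acid response. PR10 proteins stay inside the cell and belong to the same fold family as the birch pollen allergen Bet v 1. In rice, PR10a/PBZ1 was named for its induction by probenazole, a compound that protects against blast disease, JIOsPR10 for its induction by jasmonate, and RSOsPR10 for its expression in roots. NH1 is the rice homolog of Arabidopsis NPR1, the coactivator through which salicylic acid turns on PR genes.

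PR1a transcripts were 3.39-fold higher in HDS plants, and this was the difference among the 6 genes that passed every test with all 4 libraries. PR1b and JIOsPR10 were also higher on average, by 3.93-fold and 2.69-fold, and met the study's criteria, but their replicates lay far apart. PR10a/PBZ1, RSOsPR10 and NH1 did not meet these criteria. The criteria were those of the study's methods: edgeR's exactTest had to give P under 0.05, without adjustment, and the log2 fold change had to reach 0.37 in size. By them HDS plants had more transcript of 3 of the 6 genes and less of 0, where the shares of the 29698 genes tested were 4.18% and 3.7%. With the P-values adjusted over the whole table by the Benjamini-Hochberg method (FDR hereafter), 1 of the 6 was below 0.05 in the exact test (2.38% of all genes), and 1 of the 6 in edgeR's quasi-likelihood test, glmQLFTest (0.699% of the 22184 genes that edgeR's filterByExpr function kept). All 6 genes were kept by that filter, and their median log2 fold change was 0.90, beside 0.01 over all genes kept. As the 6 were chosen with earlier results of these data known, these shares describe them and are no test of the set.

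PR1a had 565 and 602 expected counts in CS replicates 1 and 2, and 2580 and 1759 in HDS replicates 1 and 2. Scaled to library size with edgeR's TMM factors (CPM), these were 38.7 and 34.7 in CS plants against 144 and 104 in HDS plants. Both HDS libraries lay well above both CS libraries, and the lower HDS library was 2.70-fold above the higher CS library. Of the 6 genes, 2 (PR1a and JIOsPR10) had both HDS libraries above both CS libraries, as did 21.2% of all genes kept. Mean levels were 36.7 ± 2.80 CPM (SD, n = 2) for CS against 124 ± 28.1 CPM (SD, n = 2) for HDS. The fitted log2 fold change was 1.76 (standard error 0.24; P = 3.74e-15 and FDR 2.18e-12 in edgeR's exact test, and FDR 0.0268 in glmQLFTest). Whichever library was omitted, the log2 fold change of PR1a stayed between 1.51 and 1.97 and met the study's criteria each time. Each omission, here and for the genes below, leaves 1 library in a treatment. Replicate spread is then seen only in the other treatment's pair, and edgeR moderates it with values shared over all genes. The lone library is assumed to vary like that pair. Without HDS replicate 1 the FDR of glmQLFTest was 0.0567, and without the other libraries it was at most 0.0148. These are whole-leaf libraries, so a different number of cells with the transcript and a different amount of it per cell cannot be told apart for any gene described here.

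**Figure D1:**
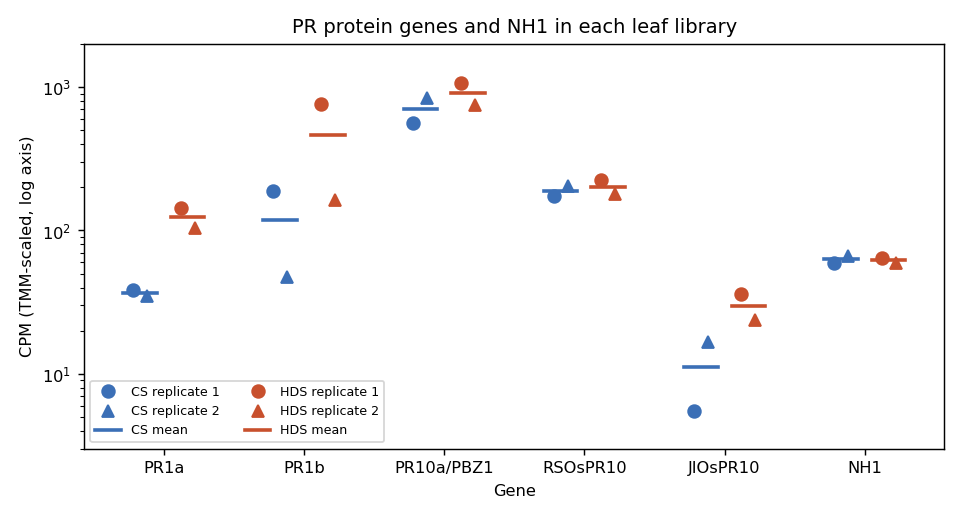
CPM (TMM-scaled, log axis) of the 6 genes in each leaf library, with circles for replicate 1, triangles for replicate 2 and a line for the mean of each treatment (blue CS, red HDS). PR1a and JIOsPR10 have both HDS libraries above both CS libraries, while PR1b ranges from 47.1 to 765 CPM and its treatments overlap.

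PR1b, the other PR1 gene, varied most of the 6 between replicates. It had 2758 and 817 expected counts in CS replicates 1 and 2, and 13682 and 2740 in HDS replicates 1 and 2. The corresponding levels were 189, 47.1, 765 and 163 CPM, so that HDS replicate 2 lay below CS replicate 1 and the treatments overlapped. HDS replicate 1 was 4.70-fold above HDS replicate 2, and CS replicate 1 was 4.01-fold above CS replicate 2. Means were 118 ± 100.1 CPM (SD, n = 2) for CS against 464 ± 426 CPM (SD, n = 2) for HDS. The log2 fold change of PR1b was 1.98 with a standard error of 1.50, P = 0.0152 in edgeR's exact test (FDR 0.326). In glmQLFTest its FDR was 0.567. The log2 fold change without HDS replicate 1 was 0.47 and PR1b did not meet the study's criteria, with only the CS pair left to show replicate spread. It was 3.29 without CS replicate 1, 1.27 without CS replicate 2 and 2.70 without HDS replicate 2. With DESeq2 the P of PR1b was 0.125, above the study's limit.

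The PR1 genes therefore differed in how evenly the libraries of a treatment behaved. The ratio of PR1b to PR1a expected counts within a library was 4.88 in CS replicate 1 and 5.30 in HDS replicate 1, but 1.36 in CS replicate 2 and 1.56 in HDS replicate 2. The ratio holds the lengths of both genes, so only its change between libraries is read, and it parted libraries of the same treatment more than it parted the treatments. The biological coefficient of variation, edgeR's estimate of the spread between replicates, was 0.535 for PR1b and 0.148 for PR1a, beside a median of 0.185 over the genes kept.

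**Figure D2:**
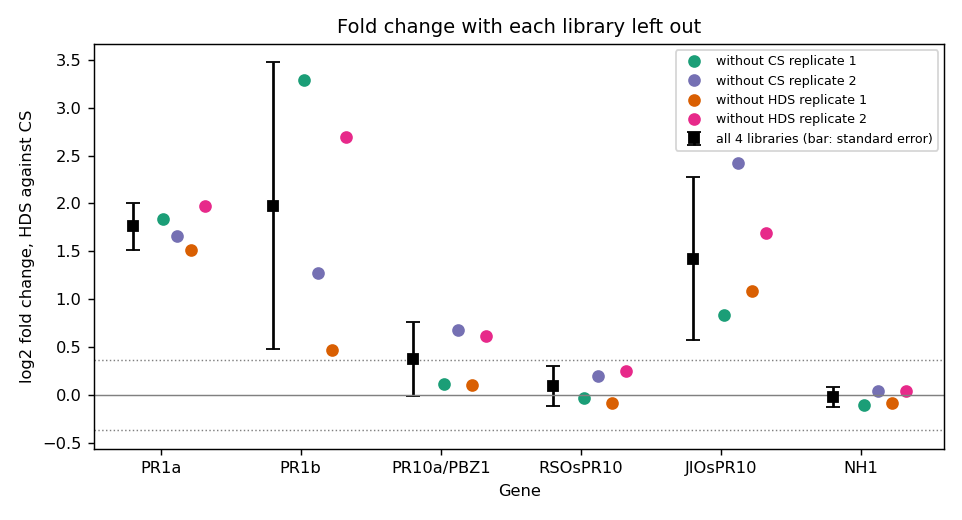
Log2 fold change of HDS against CS plants for the 6 genes, with all 4 libraries (black squares, bars show the standard error) and with each library left out (coloured points); dotted lines mark the study's limit of 0.37 in either direction. PR1a stays between 1.51 and 1.97, whereas PR1b runs from 0.47 to 3.29 and NH1 stays near 0.

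Of the 3 PR10 genes described, JIOsPR10 was the only one that met the study's criteria. It had 80 and 290 expected counts in CS replicates 1 and 2, and 645 and 398 in HDS replicates 1 and 2. These were 5.47, 16.7, 36.0 and 23.6 CPM, and the lower HDS library was 1.41-fold above the higher CS library. The treatments did not overlap, yet the CS libraries differed from each other by 3.05-fold. Mean levels were 11.1 ± 7.95 CPM (SD, n = 2) for CS against 29.8 ± 8.77 CPM (SD, n = 2) for HDS. The log2 fold change of JIOsPR10 was 1.42 (standard error 0.85), P = 0.00487 in edgeR's exact test (FDR 0.149). In glmQLFTest its FDR was 0.426. Its size rested on CS replicate 1, the lowest library, with a log2 fold change of 0.83 without CS replicate 1 and 2.42 without CS replicate 2. Without HDS replicate 1 it was 1.09 and JIOsPR10 did not meet the study's criteria, with only the CS pair left to show replicate spread.

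PR10a/PBZ1 had 8207 and 14607 expected counts in CS replicates 1 and 2, and 19192 and 12709 in HDS replicates 1 and 2. At 562, 842, 1073 and 755 CPM, the treatments overlapped, since HDS replicate 2 was below CS replicate 2. Means were 702 ± 198 CPM (SD, n = 2) for CS against 914 ± 225 CPM (SD, n = 2) for HDS, a log2 fold change of 0.38 (standard error 0.39, P = 0.167 by edgeR's exact test). The value was 0.68 without CS replicate 2, where it met the study's criteria (P = 0.0024 by edgeR's exact test), and 0.11 without CS replicate 1. The spread in the former came from the HDS pair alone, and the same omission raised the calls over all genes from 2340 to 5430. Without HDS replicate 1 it was also 0.11, and without HDS replicate 2 it was 0.61. CS replicate 1 was the lowest library for each PR10 gene described, though RSOsPR10 was at 173 CPM there against 178 in HDS replicate 2.

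RSOsPR10, named for roots, was counted in all leaf libraries, with 2527 and 3561 expected counts in CS replicates 1 and 2 and 4036 and 3003 in HDS replicates 1 and 2. These were 173, 205, 226 and 178 CPM, and the treatments overlapped. Mean levels were 189 ± 22.9 CPM (SD, n = 2) for CS against 202 ± 33.4 CPM (SD, n = 2) for HDS. The log2 fold change was 0.09 (standard error 0.21, P = 0.646 by edgeR's exact test) and ran from -0.08 to 0.25 as libraries were omitted singly. Of 3 identifiers set as root markers, 2 (Os02g0662000 and Os02g0112100) had 0 counts in every library, and a count of 0 allows up to 3 counts at this depth. The third, Os02g0745100, had between 47 and 83 counts. Leaf markers were not checked, because the tables used here do not pair these identifiers with descriptions.

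NH1 had the lowest biological coefficient of variation of the 6 genes, 0.123, with 865 and 1152 expected counts in CS replicates 1 and 2 and 1154 and 995 in HDS replicates 1 and 2. Its levels of 59.2, 66.4, 64.5 and 59.1 CPM overlapped between treatments. Means were 62.8 ± 5.11 CPM (SD, n = 2) for CS against 61.8 ± 3.81 CPM (SD, n = 2) for HDS. The log2 fold change was -0.02 (standard error 0.10, P = 0.901 by edgeR's exact test), and its range was -0.11 to 0.04 as libraries were omitted singly. The ratio of PR1a to NH1 expected counts within a library was 0.653 and 0.523 in CS plants against 2.24 and 1.77 in HDS plants. As NH1 hardly differed between treatments, this ratio restates the difference of PR1a and adds no separate evidence.

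**Figure D3:**
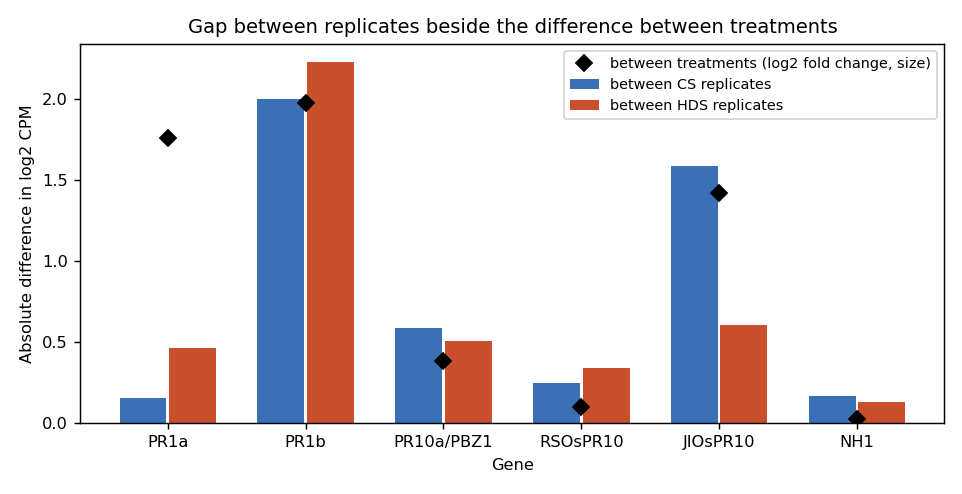
Absolute difference in log2 CPM between the CS replicates (blue bars) and between the HDS replicates (red bars) of each gene, with the size of the log2 fold change between treatments (black diamonds). PR1a has a log2 fold change (1.76) well above both replicate gaps (0.16 and 0.46), and for PR1b the gap between the HDS replicates is 2.23. The fold change is edgeR's fitted value and the gaps are in log2 CPM. As these measures differ, JIOsPR10, at 1.42 with a CS gap of 1.59, is not ranked.

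The gap between replicates, in log2 CPM, was set beside the difference between treatments, edgeR's fitted log2 fold change, for each gene. For PR1a the replicates differed by 0.16 log2 units in CS plants and 0.46 in HDS plants, against 1.76 between treatments. For PR1b both gaps, 2.00 in CS plants and 2.23 in HDS plants, were larger than the difference between treatments. The gap of PR1b between the CS libraries was larger than that of 97.9% of the genes kept, and the gap between the HDS libraries was larger than that of 99.4%. JIOsPR10 had a CS gap of 1.59, larger than that of 96.6% of the genes kept, and an HDS gap of 0.61. HDS replicate 1 was above HDS replicate 2 for 6 of 6 genes, beside 50.4% of all genes kept. CS replicate 2 was above CS replicate 1 for the PR10 genes and NH1 and below it for the PR1 genes.

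Profiles over the 4 libraries, as log2 CPM centred on each gene's own mean, were most alike for RSOsPR10 and NH1, with a Euclidean distance of 0.20, and for PR10a/PBZ1 and RSOsPR10, with 0.40. PR1a was closer to JIOsPR10 (1.25) than to PR1b (1.81), and PR1b was at least 1.81 from each of the others. With 4 libraries these distances only describe the profiles. Among the other 22183 genes kept, the nearest to PR1a was Os05g0386201, at 0.06, with 2 counts in each CS library against 16 and 10 in HDS plants. The nearest to PR1b was Os07g0418600, at 0.64, with 32 and 13 counts in CS plants against 143 and 43 in HDS plants. Even this gene was farther from PR1b than the nearest gene was from each of the other 5, where the distance was at most 0.14. These were Os03g0785900 for PR10a/PBZ1, Os01g0894000 for RSOsPR10, Os02g0783650 for JIOsPR10 and Os03g0302500 for NH1.

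RSOsPR10 and PR10a/PBZ1 lie close together on chromosome 12, and the genes between them behaved unevenly. Os12g0555100 had at most 7 counts in any library. Os12g0555200 had 2811 and 3601 counts in CS plants against 3891 and 2554 in HDS plants, a log2 fold change of -0.12 (standard error 0.27, P = 0.607 by edgeR's exact test). Os12g0555300 was lower in HDS plants, with 206 and 163 counts in CS plants against 131 and 111 in HDS plants. Its log2 fold change was -0.75 (standard error 0.30, P = 0.0238 by edgeR's exact test), and its FDR was 0.432. Os12g0555400, next to PR10a/PBZ1, had 316 and 229 counts in CS plants against 219 and 270 in HDS plants, and did not meet the criteria. The expected counts of all 6 genes described here were whole numbers in every library, so no division of reads with a similar neighbour is seen in them. The identifiers from Os12g0554000 to Os12g0556500 hold 17 other genes, of which 1 had no count and was not tested. By the study's criteria 1 was higher (Os12g0556500, log2 fold change 0.50, P = 0.0288 by edgeR's exact test) and 1 was lower (Os12g0555300), beside 4.18% and 3.7% of all genes tested. Of the 17, 0 had an FDR under 0.05 in edgeR's exact test or in glmQLFTest.

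Around PR1a on chromosome 7, the 7 other genes kept by filterByExpr had log2 fold changes of at most 0.50, beside 1.76 for PR1a. The remaining neighbours had too few counts to be compared. Os07g0129300, the next gene listed, had 203 and 140 counts in CS plants against 210 in each HDS library, a log2 fold change of 0.14 (standard error 0.39, P = 0.691 by edgeR's exact test). The 15 genes listed from Os07g0124900 to Os07g0129100, just before PR1a, had at most 3 counts in any library, and 8 of them had 0 in all. Among these, Os07g0125201, Os07g0126100 and Os07g0126500 had the same values in each library, 1.33 and 0 in CS plants against 2.33 and 0.33 in HDS plants, which sum to whole numbers over the 3 genes, as reads divided evenly among them would give. The identifiers from Os07g0124000 to Os07g0130000 hold 31 other genes, of which 11 had no count in any library and 7 were kept by filterByExpr. With PR1a, 21 of the listed genes had a count and were tested. Besides PR1a, 1 of these was higher and 0 were lower by the study's criteria, beside 4.18% and 3.7% of all genes tested. The higher gene was Os07g0124500, with 922 and 1679 counts in CS plants against 2017 and 1907 in HDS plants (log2 fold change 0.50, P = 0.0366 by edgeR's exact test, FDR 0.544).

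**Figure D4:**
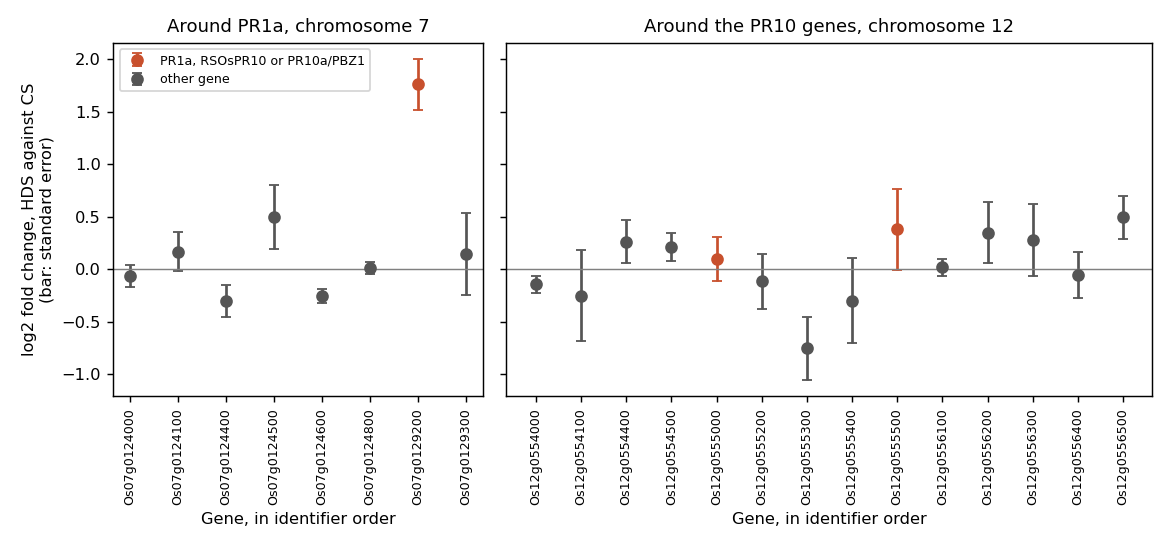
Log2 fold change of HDS against CS plants (points, bars show the standard error) for genes kept by filterByExpr around PR1a (left) and around the PR10 genes (right), in the order of their identifiers. PR1a at 1.76 stands above its neighbours, which reach at most 0.50, while RSOsPR10 (0.09) and PR10a/PBZ1 (0.38) lie among theirs.

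A list of 10 identifiers was set for the salicylic acid pathway, NH1 among them, and the tables used here pair none of the others with a name. By the study's criteria 0 of the 10 were higher and 1 was lower in HDS plants, beside 4.18% and 3.7% of all genes tested, and their median log2 fold change was 0.04. The lower gene was Os11g0195500, with 1609 and 2037 counts in CS plants against 1189 and 965 in HDS plants. Its log2 fold change was -0.88 (standard error 0.12), P = 1.41e-06 in edgeR's exact test (FDR 1.61e-04). In glmQLFTest the FDR of Os11g0195500 was 0.0696. Os09g0417800, singled out after its values were seen, had 1736 and 203 counts in CS plants against 2295 and 1032 in HDS plants. It was thus low in CS replicate 2, as PR1b was, and its log2 fold change of 0.54 had a standard error of 1.75 (P = 0.538 by edgeR's exact test).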

How the data were processed

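Leaf RNA of 2 CS and 2 HDS replicates was compared. Samples were assigned by their titles. The deposited values are RSEM expected counts, made by the authors on the IRGSP gene models and not normalized; Trimmomatic and Bowtie2 are named in the submitters' processing notes. The table lists 37858 genes, each row names a gene and every column was used.

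Expected counts were rounded. edgeR 4.0.16 (R 4.3.3) was run with exactTest (TMM, estimateDisp, genes with at least 1 count) and the quasi-likelihood test (glmQLFit, glmQLFTest, filterByExpr), both on the whole table. DESeq2 1.42.0 was an alternative. Standard errors come from log2 CPM (prior count 2) of the replicates. They belong to the difference in mean log2 CPM, not to edgeR's fitted log2 fold change or P printed beside them. As CPM is not scaled by gene length, levels were not compared between genes. On simulated data for this comparison (29698 genes, 200 changed, each with a mean of at least 50 counts), the study's criteria recovered 90% of genes changed by 1 log2 unit and 100% of those changed by 2, and called 1211 unchanged genes. The quasi-likelihood test recovered 41% and 93%, and called 21 unchanged genes.

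The 6 genes and the lists were chosen with earlier results of these data known. Other genes were named where they had the smallest P in each direction of a list, or the profile nearest to a gene. Lists that needed gene descriptions, such as chitinases, glucanases, thaumatin-like proteins and TGA factors, were not analysed here. The neighbours Os07g0129300, Os12g0555100, Os12g0555200 and Os12g0555400 and the equal triplet were named after their values were seen. Sequences and coordinates were not used here. The labels and the methods name different library kits.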

Additional observations from a re-analysis of the deposited data

How the results depend on the processing

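PR1a met the study's criteria under every alternative run, with a log2 fold change between 1.51 and 1.97. PR1b no longer met them with DESeq2 (1.96), with adjusted P-values (1.98) or without HDS replicate 1 (0.47). Its range was 0.47 to 3.29 as libraries were omitted singly. JIOsPR10 no longer met them with adjusted P-values (1.42) or without HDS replicate 1 (1.09), and its range was 0.83 to 2.42 in the same way. PR10a/PBZ1 then ranged from 0.11 to 0.68, RSOsPR10 from -0.08 to 0.25 and NH1 from -0.11 to 0.04. RSOsPR10 turned negative without CS replicate 1 (-0.028) and without HDS replicate 1 (-0.084). NH1 turned positive with total counts (0.043), without CS replicate 2 (0.041) and without HDS replicate 2 (0.038). In all, 73 of 84 values of the 6 genes kept their direction and their side of the limits. Leaving a library out leaves 1 in its treatment, which is assumed to vary like the other pair, and the cause was not tested.

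With adjusted P-values, 1 of the 6 genes and 707 of all genes met the criteria, in place of 3 and 2340. With libraries omitted singly, between 1 and 4 of the 6 genes and between 1132 and 5430 of all genes did. By the quasi-likelihood test, 1 of the 6 genes and 155 of all genes had an adjusted P under 0.05. The count over all genes was 419 without the filter and, with filterByExpr kept, 724 with the exact test and 566 with DESeq2 and its own size factors. It was between 64 and 2506 with libraries omitted singly, and between 0 and 2 for the 6 genes; the 0 arose without HDS replicate 1.

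The replicates of CS and HDS plants share only numbers, and their deviations across genes did not move together (correlation 0.004). With the replicate number as a block, 3 of the 6 genes (PR1a, PR1b and JIOsPR10) and 532 of all genes were below an adjusted P of 0.05 in glmQLFTest. That of PR1b was then 0.000178 and that of JIOsPR10 0.047, beside 0.567 and 0.426 in glmQLFTest without the block. As the labels give no pairing, the block is shown as a setting only and adds no evidence for these genes. By replicate number, PR1b was 4.05-fold and 3.46-fold higher in HDS plants, and JIOsPR10 was 6.59-fold and 1.41-fold higher.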
